A study of Mus musculus with 30 samples.

Results

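The superoxide-producing NADPH oxidase of phagocytes, its vascular relatives Nox1 and Nox4, and the stress-induced enzyme Hmox1 were followed in mouse aorta through 8 genes: Cybb, Cyba, Ncf1, Ncf4, Rac2, Nox1, Nox4 and Hmox1. They were read from the probes whose gene name in the scanner files equals one of these symbols, 13 of the 55657 probes used. All 8 genes passed the filter on dim signal and stood among 23267 gene names tested. RNA came from the aorta of C57BL/6 mice that were wild type (WT) or uMT, a B cell-deficient line, and was measured on 30 one-colour Agilent arrays. In each genotype, 3 arrays were of unoperated mice (pre), 3 each of sham-operated mice that received saline around the aorta, at day 7 and day 42, and 3 each of mice that received 0.5 M CaCl2 there, at day 7 and day 42. Sham mice thus share the operation with the CaCl2 mice and lack the CaCl2. Periaortic CaCl2 is a chemical model of abdominal aortic aneurysm. The tissue label reads aneurysm for every array, pre and sham included, and ages are not given in the labels. Nothing in the labels says that the 3 arrays of a group come from separate mice, so p-values measure the spread between these arrays, which may be technical.

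In the phagocyte oxidase, electrons pass from NADPH to oxygen through Cybb (gp91phox), which sits in the membrane with its stabilising partner Cyba (p22phox). On activation the cytosolic subunits Ncf1 (p47phox, the organiser) and Ncf4 (p40phox, which binds a membrane lipid) join them together with the small GTPase Rac2, which is largely confined to blood cells. Nox1 and Nox4 are relatives of Cybb found in vessel wall cells: Nox1 works with its own organiser and activator, Noxo1 and Noxa1, whereas Nox4 needs Cyba and releases mainly hydrogen peroxide without activation. Hmox1, haem oxygenase 1, degrades haem and is a classic target of the oxidant-responsive factor NRF2 and of its antagonist Bach1.

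Levels are log2 processed signal minus the 75th percentile of the array, so 0 is that percentile and levels of different genes are not compared. Differences are log2 differences of group means with the standard error (SE) of a limma fit over all 30 arrays, and a gene is called at a Benjamini-Hochberg adjusted p under 0.05 over 23267 genes. A number in parentheses after a difference is its adjusted p, unless it is named otherwise. Where the arrays of 2 groups are said to lie apart, without overlap, this only describes the arrays and is not a further test. The share of all genes that do so is not given. Probe positions are on mm9. The share of probes with signal clear of background lay between 36.5% and 61.8% per array, and the 75th percentile ran from 36.1 to 428 intensity units. The array of WT sham day 42 replicate 2 stands apart: it had the lowest of both values, it was alone on its slide and scan day, and it correlated at only 0.727 and 0.718 with the other arrays of its group. Comparisons with WT sham day 42 rest in part on this dim array, which also enters the spread that all comparisons share. No uMT CaCl2 array shared a slide with a uMT sham array, so for these comparisons slide and group cannot be told apart. The day 7 WT CaCl2 and sham arrays did not share a slide either. Their slides are linked only through WT sham day 42, by replicate 1 on one and replicate 3 on the other. A fixed slide block for that comparison thus rests on 1 array per slide. Apart from uMT pre replicate 1, no uMT array shared a slide with a WT array. All WT CaCl2 arrays were on 1 slide and all uMT CaCl2 arrays on another, so after CaCl2 slide and genotype cannot be told apart. As a check of the labels, 5 of 6 measured B cell markers were called lower in uMT on average over the 5 conditions. The contractile smooth muscle markers Tagln and Acta2 were well above background on all 30 arrays.

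The RefSeq promoter table (GRCm38.p6) held 5 of the 8 genes, Cyba, Cybb, Ncf1, Nox1 and Nox4. For the phagocyte subunits, whose levels moved together, the 100 bases before the annotated start and the first 20 bases after it are shown, 5′ to 3′ on the gene's strand, with any GAGGAA, the core letters of sites for the myeloid factor PU.1, on either strand in capitals.
Cybb, chrX:9469305-9469424, minus strand: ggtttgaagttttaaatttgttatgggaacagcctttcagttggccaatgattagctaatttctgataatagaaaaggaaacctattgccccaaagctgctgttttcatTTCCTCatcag
Cyba, chr8:122432921-122433040, minus strand: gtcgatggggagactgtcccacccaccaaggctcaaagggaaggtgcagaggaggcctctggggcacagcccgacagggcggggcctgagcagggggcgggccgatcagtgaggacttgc
Ncf1, chr5:134229606-134229725, minus strand: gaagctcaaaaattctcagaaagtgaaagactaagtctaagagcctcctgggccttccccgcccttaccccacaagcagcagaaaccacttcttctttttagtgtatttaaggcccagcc
In the full windows of 300 bases, GAGGAA was found in Cybb, where it starts at base 10 after the start and lies on the other strand, and in Nox1, and not in Cyba, Ncf1 or Nox4. Of 32851 promoter windows of that length, 28.3% hold it on either strand. The Cybb window also holds CCAAT, found in 37.4% of the windows, and TGATAA, found in 9.05%, which Cyba and Nox1 hold as well. The antioxidant response core TGACNNNGC (12.4% of windows), CACGTG (7.15%) and TATAAA (13.6%) were in none of the 5. None of these motifs overlaps another in the Cybb window. The matches describe letters only.

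Cybb, the catalytic subunit, had its lowest group means in unoperated aorta and its highest after CaCl2. Its probe lies at chrX:9013216-9013275. The 3 levels in WT pre aorta were -2.58, -2.79 and -3.27, in WT sham 0.15, 0.70 and -0.11 at day 7 and -2.01, -3.56 and -0.63 at day 42, and in WT CaCl2 1.39, 2.31 and 1.83 at day 7 and 0.67, 0.93 and 0.75 at day 42. All WT CaCl2 arrays were higher than all WT sham arrays of the same day. In uMT aorta the levels were -2.53, -2.66 and -2.13 in pre, -0.31, 0.62 and -0.47 in sham at day 7 and 0.03, -0.21 and -0.79 in sham at day 42. After CaCl2 in uMT they were 2.12, 0.55 and -0.67 at day 7 and 3.13, 1.96 and 1.66 at day 42. The day 7 uMT CaCl2 arrays ran from the level of the sham arrays to that of the WT CaCl2 arrays, whereas the day 42 arrays were all above sham. The dim array and uMT pre replicate 2 gave no Cybb signal well above background.

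At day 42, where 10.4% of all genes were called in WT, all 5 phagocyte subunits rose after CaCl2 and Nox1, Nox4 and Hmox1 were not called. Cybb rose by 2.85 ± 0.59 (7.21-fold, adjusted p = 0.00355). Cyba rose by 1.47 ± 0.38 (adjusted p = 0.0148), Ncf1 by 2.02 ± 0.43 (adjusted p = 0.00451), Ncf4 by 3.11 ± 0.61 (8.61-fold, adjusted p = 0.00243) and Rac2 by 2.65 ± 0.53 (adjusted p = 0.0028). For each of the 5 the 3 CaCl2 arrays lay above the 3 sham arrays. In bulk tissue more cells of a type and more RNA per cell cannot be told apart. Without the dim array the differences were 2.11 for Cybb (adjusted p = 0.0209), 1.87 for Ncf1 (0.0157), 2.22 for Ncf4 (0.0131) and 1.85 for Rac2 (0.0146), while Cyba, at 1.02, was no longer called (0.0669). The share of all genes called was then 12.3%. Cyba was also lost without WT CaCl2 day 42 replicate 3 (1.24, adjusted p = 0.082). On the 1 slide with both conditions, 3 CaCl2 arrays against 1 sham array differed by 1.42 for Cybb, 0.97 for Cyba, 1.71 for Ncf1, 1.89 for Ncf4 and 1.91 for Rac2. With slide as a random block only Rac2 was called, with slide as a fixed block none of the 5 subunits was, and with only these 2 groups in the fit no member was. Under the random block with the dim array left out, Cybb, Ncf1, Ncf4 and Rac2 were called (adjusted p 0.00996 to 0.0157) and Cyba was not.

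All 5 subunits rose in uMT aorta at day 42 too, where 6.33% of all genes were called. Ncf1 rose by 2.80 ± 0.43 (6.96-fold, adjusted p = 4.18e-04), Cybb by 2.57 ± 0.59 (0.00973), Ncf4 by 2.55 ± 0.61 (0.0127), Rac2 by 2.24 ± 0.53 (0.0121) and Cyba by 1.54 ± 0.38 (0.0148). The CaCl2 and sham arrays did not overlap for any of them. Without uMT sham day 42 replicate 3, or without uMT CaCl2 day 42 replicate 1, only Ncf1 was still called. The lost calls then had differences between 1.30 and 2.38 and adjusted p-values between 0.0656 and 0.116. With slide as a random block no member was called, and with that block and the dim array left out 7 were. Under quantile normalization Cybb had an adjusted p of 0.0518. Without the 6 arrays on which under 50% of the probes were above background, which leaves 1 array a group here, the 5 differences were 0.98 to 1.80 and none was called.

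**Figure D1:**
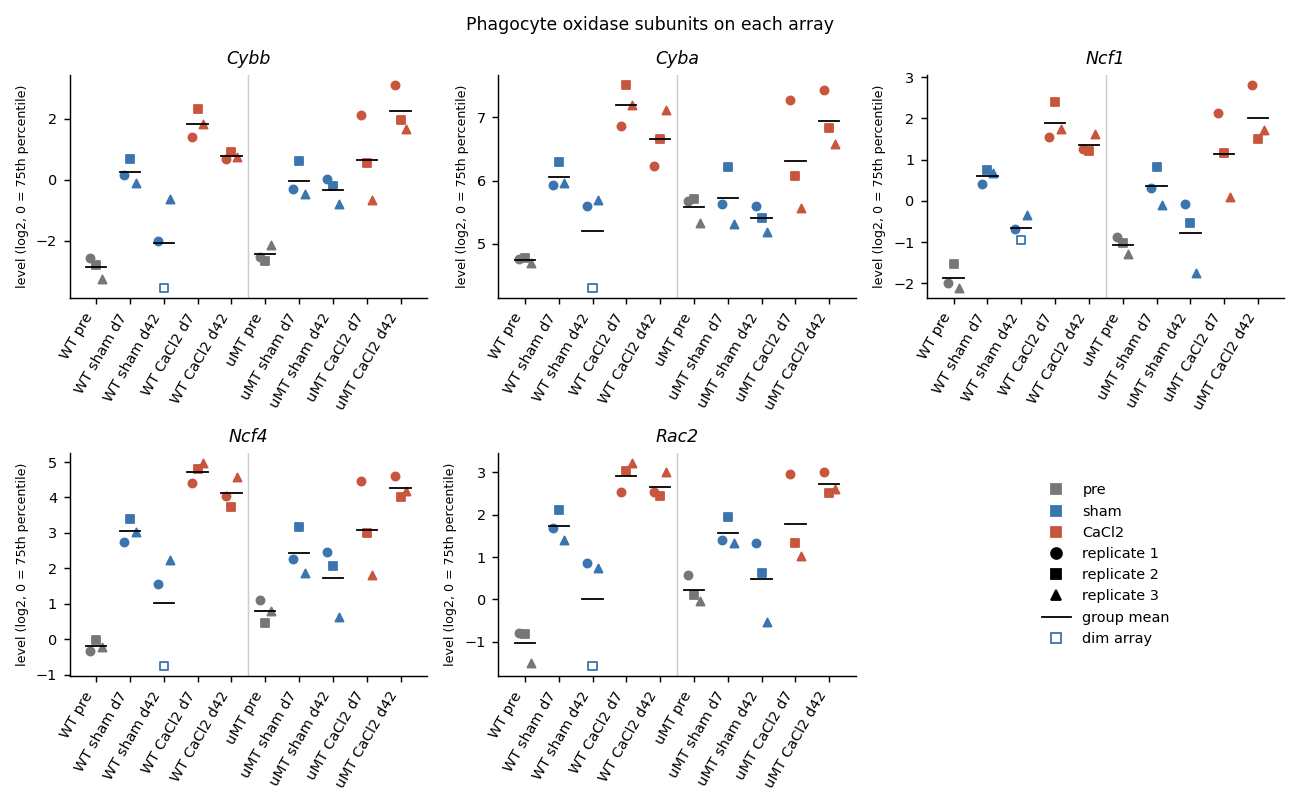
Levels of the 5 phagocyte oxidase genes on each of the 30 arrays (y axis: log2 level, 0 at the 75th percentile of the array, x axis: the 10 groups, symbols: replicates, line: group mean, open symbol: the dim array). WT pre has the lowest mean in each panel, the day 42 CaCl2 arrays lie above all day 42 sham arrays of their genotype, and the 3 uMT CaCl2 arrays of day 7 are spread widely, from -0.67 to 2.12 for Cybb.

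Cyba, the membrane partner shared with Nox1 and Nox4, showed the smallest range of group means among the 5, 2.45 on the log2 scale against 5.13 for Cybb. Its brighter probe lies at chr8:124948726-124948785. Group means were 4.75 ± 0.04 (SD, n = 3) in WT pre, 6.06 ± 0.20 and 5.20 ± 0.78 in WT sham at day 7 and day 42, and 7.19 ± 0.32 and 6.66 ± 0.45 in WT CaCl2. The uMT means were 5.58 ± 0.21 in pre, 5.72 ± 0.46 and 5.40 ± 0.21 in sham and 6.30 ± 0.88 and 6.95 ± 0.44 in CaCl2. In the order of the 10 means the arrays of each group overlapped those of the next. The second probe covers 60 bases of coding sequence that span 269 bases of the genome, chr8:124950893-124951161, and so crosses an exon junction.
Cyba, junction probe: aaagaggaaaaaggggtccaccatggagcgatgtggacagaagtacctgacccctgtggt
This probe correlated with the brighter one at 0.871 over the 30 arrays. It gave 1.37 ± 0.47 in WT at day 42 (adjusted p = 0.0613 in a fit over all kept probes) and 1.36 ± 0.47 in uMT (0.0911). The Cyba call at day 42 thus rests on 1 of its 2 probes, with the same direction in both.

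Ncf1, the organiser, had levels of -1.98, -1.53 and -2.11 in WT pre, -0.68, -0.96 and -0.35 in WT sham and 1.25, 1.21 and 1.62 in WT CaCl2 at day 42. Those in uMT were -0.87, -1.03 and -1.28 in pre, -0.08, -0.53 and -1.75 in sham and 2.81, 1.51 and 1.71 in CaCl2 at day 42. WT pre had the lowest mean, and its 3 arrays did not overlap those of uMT pre, which were on other slides. The order of means ran from uMT CaCl2 day 42 (2.01 ± 0.70) through WT CaCl2 day 7 (1.89 ± 0.45), WT CaCl2 day 42 (1.36 ± 0.23), uMT CaCl2 day 7 (1.13 ± 1.02), WT sham day 7 (0.61 ± 0.18) and uMT sham day 7 (0.35 ± 0.45) to WT sham day 42 (-0.66 ± 0.30), uMT sham day 42 (-0.79 ± 0.86), uMT pre (-1.06 ± 0.21) and WT pre (-1.87 ± 0.30). Of these 9 neighbouring pairs 7 overlapped. Its 1 probe lies at chr5:134696380-134696439.

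Ncf4, which tethers the cytosolic subunits to phagosome membranes, had levels of -0.34, -0.02 and -0.23 in WT pre, 1.57, -0.76 and 2.23 in WT sham at day 42 and 4.05, 3.74 and 4.57 in WT CaCl2 at day 42. The second of the sham values is the dim array and the lowest of all 30. At day 7 WT sham gave 2.74, 3.39 and 3.03 and WT CaCl2 4.42, 4.79 and 4.97. In uMT the day 7 CaCl2 arrays gave 4.46, 3.004 and 1.80, beside 2.27, 3.17 and 1.88 in sham, and the 2 groups overlapped. The uMT day 42 arrays gave 4.60, 4.004 and 4.19 in CaCl2 and 2.46, 2.07 and 0.62 in sham. Its probe lies at chr15:78092903-78092962.

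Rac2 is printed in 10 spots on each array, at chr15:78391452-78391511, which gives a measure of the technical spread. The SD over the spots of 1 array had a median of 0.061 on the log2 scale and was at most 0.114, except on the dim array, where it was 0.736. Levels were -0.80, -0.81 and -1.499 in WT pre, 0.86, -1.58 and 0.75 in WT sham and 2.53, 2.43 and 3.01 in WT CaCl2 at day 42. The uMT arrays of that day gave 1.32, 0.63 and -0.53 in sham and 3.02, 2.52 and 2.61 in CaCl2. In both genotypes the day 42 CaCl2 arrays were all above the sham arrays.

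At day 7 the phagocyte subunits were not called after CaCl2 in either genotype. In WT, where 6.59% of all genes were called, 2 members were called, Hmox1 higher and Nox4 lower. The 5 subunits differed by 1.13 to 1.67, with adjusted p-values from 0.0748 to 0.204. For each of the 5 the 3 CaCl2 arrays were above the 3 sham arrays, and the 5 levels moved together across arrays (r = 0.905 to 0.981). The dim array is in neither group, but enters the spread of the fit. With it left out 18.4% of all genes were called. Among them were Cyba (0.0204), Ncf1 (0.0416), Ncf4 (0.0227) and Cybb (0.0333), while Rac2 was not called (0.0512). In uMT, where 0.894% of all genes were called, the 5 differences were 0.21 to 0.78 and the groups overlapped for each. Replicate 1 of uMT CaCl2 day 7 was the highest of its group for all 5, and without it the differences ran from -0.38 for Rac2 to 0.28 for Ncf1. With slide as a fixed or as a random block no member was called in WT at day 7. Under the random block with the dim array left out, all 5 subunits were called there (adjusted p 0.0064 to 0.0211). The share of all genes called under that setting is not given here.

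Sham surgery alone raised 4 of the 5 subunits in WT at day 7 and Cybb in uMT. In WT, where 2.37% of all genes were called between sham day 7 and pre, Ncf4 rose by 3.25 ± 0.61 (9.53-fold, adjusted p = 0.00339), Cybb by 3.13 ± 0.59 (0.00363), Rac2 by 2.77 ± 0.53 (0.0041) and Ncf1 by 2.48 ± 0.43 (0.00176). Cyba was 1.32 ± 0.38 higher (0.0741), without overlap. These 6 arrays were on 1 slide, and none of the 4 calls was lost when any 1 replicate of these groups or the dim array was left out. The Cybb call was lost under quantile normalization (2.998, adjusted p = 0.078). At day 42 of WT sham, 0.168% of all genes and no member were called against pre, with differences of 0.45 to 1.21 for the 5 subunits. Without the dim array these were 0.90 for Cyba, 1.36 for Ncf1, 1.56 for Cybb, 1.84 for Rac2 and 2.10 for Ncf4, and none was called. Under quantile normalization the Cybb difference was -0.07. In uMT, 2.54% of all genes were called between sham day 7 and pre and 17.4% between sham day 42 and pre, and Cybb was the 1 member called in both. It rose by 2.39 ± 0.59 at day 7 (0.032) and 2.12 ± 0.59 at day 42 (0.0183). The day 7 call was lost without any of 5 replicates (uMT pre 1 or 2, uMT sham day 7 1, 2 or 3), with differences from 2.05 to 2.60. The day 42 call was lost without uMT pre replicate 1 or 2 or uMT sham day 42 replicate 2, with differences from 2.01 to 2.07. Under quantile normalization the adjusted p was 0.195 at day 7 and 0.115 at day 42. With the dim array left out of the fit, more subunits were called in uMT sham day 7 against pre, beside 12.9% of all genes. These were Ncf1 at 1.41 (0.0351), Ncf4 at 1.65 (0.0317) and Rac2 at 1.35 (0.0375), while Cyba at 0.14 was not called (0.809). In WT sham day 7 against pre Cyba was then called too (0.0192), beside 4.1% of all genes. Within the shared slide, 3 sham arrays against 2 pre arrays gave 2.34 at day 7 and 2.07 at day 42 for Cybb.

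Between day 7 and day 42 of CaCl2 no member was called in either genotype. In WT the 5 subunits differed by -1.06 for Cybb to -0.27 for Rac2, day 42 minus day 7, beside 0.55% of all genes called. In uMT CaCl2 they were 0.65 to 1.58 higher at day 42, beside 0.971% of all genes called. In that comparison Cybb differed by 1.58 ± 0.59 (95% interval 0.36 to 2.80, adjusted p = 0.248). Without uMT CaCl2 day 7 replicate 1 Cybb was called there (2.31, adjusted p = 0.0404).

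With all arrays no member was called in any genotype comparison run, and uMT was not compared with WT within pre or sham aorta alone. In pre aorta the lowest uMT array lay above the highest WT array for Cyba (5.33 against 4.77) and Ncf1 (-1.28 against -1.53). The same held for Ncf4 (0.46 against -0.02) and Rac2 (-0.04 against -0.80). For the other members the pre arrays overlapped, and these differences were not tested. No uMT pre array shared a slide with a WT pre array, and on uMT pre replicate 2 only 42.4% of the probes were above background. The separations thus describe these arrays and give no genotype difference. The response to CaCl2 was compared as the CaCl2 minus sham difference in uMT minus that in WT, for which 0% of all genes were called at day 7 (by limma, 981 genes had an unadjusted p under 0.05) and 0.107% at day 42. At day 42 the interaction was 0.78 ± 0.61 for Ncf1 (95% interval -0.49 to 2.04) and -0.28 ± 0.84 for Cybb (-2.01 to 1.45). Without the dim array the value was 0.92 for Ncf1, and for Cybb it turned sign, to 0.46. Ncf4 went from -0.56 to 0.33 and Rac2 from -0.40 to 0.39, so no direction is given for these 3 genes, and none was called either way. After CaCl2 itself, 0.219% of all genes were called between uMT and WT at day 7 and 1.31% at day 42, none of them a member. In these comparisons the arrays of each genotype were on a slide of their own. At day 42 the 3 uMT arrays were above the 3 WT arrays for Cybb, by 1.47 ± 0.59 (adjusted p = 0.217). At day 7 Ncf4 was -1.64 ± 0.61 in uMT relative to WT (adjusted p = 0.286), and without uMT CaCl2 day 7 replicate 1 Ncf4 (-2.32, adjusted p = 0.0302), Cyba (-1.37, 0.0309) and Hmox1 (-2.56, 0.0124) were called. Averaged over the 5 conditions, 2.97% of all genes and no member were called.

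**Figure D2:**
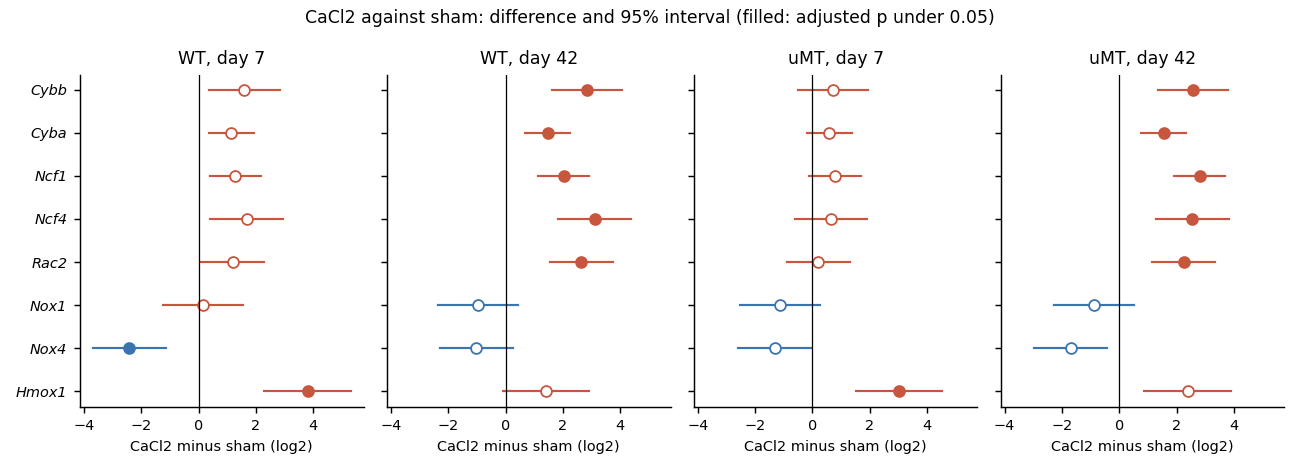
CaCl2 minus sham difference of group means (x axis, log2) for the 8 genes in each genotype and day. Points are differences from the limma fit, lines are 95% intervals, red is above and blue below 0, and filled points have an adjusted p under 0.05. At day 42 all 5 phagocyte subunits are filled in both genotypes, and at day 7 Hmox1 is filled in both and Nox4 in WT.

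Rac1, the widely expressed relative of Rac2, differed by 0.75 ± 0.37 in WT (0.183) and 0.22 ± 0.37 in uMT (0.85) at day 42 and was not called. The WT difference came from the dim array: without it, it was -0.03 (0.943).

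Among 17 measured of 19 listed partners and regulators of the oxidases, 8 rose and 0 fell after CaCl2 in WT at day 42, with a median difference of 1.04 beside 0.05 over all genes. In uMT at day 42, 5 rose and 0 fell (median 0.73 beside -0.04). At day 7, 1 of 17 rose in WT and none in uMT. The shares of all genes called in WT and uMT were 10.4% and 6.33% at day 42, and 6.59% and 0.894% at day 7. Leaving out the dim array, 7 rose in WT at day 42 (median 0.42), 9 in uMT at day 42 and 7 in WT at day 7, where 1 fell. Of all genes 12.3%, 15% and 18.4% were then called, in that order. The largest rise in WT at day 42 was that of Hvcn1, the proton channel that compensates the charge moved by the oxidase, at 3.72 ± 0.68 (adjusted p = 0.00153), or 2.40 without the dim array (0.00232). It also rose in uMT, by 2.37 ± 0.68 (0.0369). Prkcb, a protein kinase C, had the largest rise in uMT, 2.78 ± 0.55 (0.00334), and rose by 2.55 ± 0.55 in WT (0.00462). The 1 called at day 7 was Arhgdib, which rose by 0.74 ± 0.22 in WT (0.048).

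Pan-leukocyte and many macrophage markers rose with the subunits after CaCl2 at day 42. There, 8 of 8 pan-leukocyte and 11 of 14 macrophage markers rose in WT, and 7 of 8 and 8 of 14 in uMT. Of all genes 10.4% were called in WT and 6.33% in uMT. The median difference of the pan-leukocyte list was 2.56 in WT and 2.43 in uMT. In WT 5 of 8 pan-leukocyte (median 1.88) and 6 of 14 macrophage markers rose once the dim array was left out. In uMT 8 of 8 and 12 of 14 then rose. The shares of all genes called were then 12.3% in WT and 15% in uMT. At day 7, 2 of 8 pan-leukocyte markers rose in WT and 0 of 8 in uMT, whereas 8 of 8 rose in WT sham day 7 against pre and 1 of 8 in uMT sham against pre on each day. Without the dim array 4 of 8 rose in WT and 0 of 8 in uMT after CaCl2 at day 7, beside 18.4% and 9.82% of all genes called. Against pre, 8 of 8 then rose in WT sham day 7, 5 of 8 in uMT sham day 7 and 1 of 8 in uMT sham day 42. The shares of all genes called there were 4.1%, 12.9% and 40.3%, in that order. Of the 14 macrophage markers, 2 rose and 4 fell in uMT sham day 42 against pre, where Cybb rose, with a median of -0.998. Of all genes 17.4% were called there. Without the dim array 3 rose and 8 fell there, beside 40.3% of all genes called. Summed on the linear scale, in units of the 75th percentile, the pan-leukocyte markers ran from 13.2 to 20.2 in WT pre, 118 to 157 in WT sham day 7 and 11.9 to 70.3 in WT sham day 42 to 260 to 389 and 229 to 330 in WT CaCl2. In uMT they ran from 31.0 to 44.2 in pre to 61.8 to 243 and 201 to 273 in CaCl2. At day 42 the macrophage sums were 279 to 304 in WT sham and 453 to 654 in WT CaCl2. In uMT the macrophage sums overlapped, with 435 to 702 in sham and 650 to 971 in CaCl2. The neutrophil sums of that day overlapped in both genotypes. They were 145 to 1216 in WT sham, 191 to 263 in WT CaCl2, 261 to 450 in uMT sham and 297 to 476 in uMT CaCl2. Of 11 measured neutrophil markers 3 rose in WT (5 without the dim array) and 4 in uMT at day 42. Of the 12 listed, named after their values were seen, Ngp was above background on 1 of 30 arrays, Mmp8 on 5, Cxcr2 on 7, Ltf on 14, Mpo on 16 and Retnlg on 18. S100a8 and S100a9 were above it on 24, Ly6g on 29 and Csf3r, Elane and Camp on 30. Across arrays the levels of the 5 subunits correlated with one another at r = 0.905 to 0.981 (10 pairs, 30 arrays that share groups) and at 0.891 to 0.978 without the dim array. With the mean pan-leukocyte marker level they correlated at 0.920 for Cybb, 0.936 for Cyba, 0.957 for Ncf1, 0.985 for Rac2 and 0.986 for Ncf4. The part of the leukocyte markers in the rise of the subunits was not tested.

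The genes most like each subunit over the 30 arrays, among 15103 candidates, are given as a description, with r over arrays that share groups. For Cybb they were Ttyh2 (0.984), Ctsb (0.980) and Nfkbid (0.975). For Ncf4 they were Myo1f (0.992) and Blnk (0.988), and for Ncf1 Lpxn (0.976), Cotl1 (0.975) and Was (0.971). Rac2 was closest to Nckap1l (0.984), Arhgap9 (0.983) and Cd52 (0.982). Cyba was closest to Rasgef1b (0.969), Sh3bgrl3 (0.968) and Sh3tc1 (0.968). Leaving out the dim array moved none of these values by more than 0.01.

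Nox4, the constitutively active oxidase of smooth muscle and other wall cells, went the other way and had its highest group means in unoperated aorta. Its brightest probe lies at chr7:94547025-94547084. Levels were 5.66, 5.62 and 5.24 in WT pre, 5.002, 5.11 and 5.24 in WT sham day 7 and 3.19, 2.71 and 2.21 in WT CaCl2 day 7. At day 42 they were 4.83, 2.15 and 5.63 in WT sham and 3.24, 3.10 and 3.20 in WT CaCl2. The dim array, the second of these sham values, lay below every CaCl2 array of its day, and the other sham arrays lay above them all. Nox4 fell by 2.42 ± 0.62 in WT at day 7 (5.33-fold lower, adjusted p = 0.0199). This call was lost without any 1 of 5 of the 6 arrays compared (all 3 WT sham day 7 arrays and WT CaCl2 day 7 replicates 2 and 3), with differences of -2.47 to -2.17 and adjusted p-values of 0.0638 to 0.111. At day 42 in WT it differed by -1.02 ± 0.62 (adjusted p = 0.273), and without the dim array by -2.05 (0.0124), which is a call. Within the 1 slide that holds both conditions the difference was -2.45, and with slide as a fixed block Nox4 was called (0.0377).

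In uMT, Nox4 levels were 4.74, 4.38 and 4.60 in sham and 1.77, 4.24 and 3.78 in CaCl2 at day 7, and 4.66, 3.92 and 4.63 and 1.87, 2.66 and 3.59 at day 42. The groups did not overlap on either day, and the differences of -1.31 ± 0.62 (0.314) and -1.70 ± 0.62 (0.107) were not called. With the dim array, which is in neither group, left out of the fit, the day 42 difference was called (0.0138). In uMT pre the levels were 5.40, 5.45 and 5.07.

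A second Nox4 probe lies further along the same stretch (chr7:94547113-94547172) and correlated with the first at 0.997. The third covers 60 coding bases spread over 15021 bases of the genome, chr7:94472458-94487478, and so crosses at least 1 exon junction. It is shown because its day 42 result in WT differs from that of the other 2.
Nox4, junction probe: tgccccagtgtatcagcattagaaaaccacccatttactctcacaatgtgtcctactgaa
On this probe WT sham day 42 gave 1.72, 2.98 and 2.59 and WT CaCl2 day 42 0.41, -0.20 and -0.39. Here the dim array was the highest of its group, where it was the lowest on the brightest probe. The WT difference was -2.49 ± 0.46 at day 42 (adjusted p = 0.00193 over all kept probes) and -2.10 ± 0.46 at day 7 (0.00974). In uMT it was -1.498 ± 0.46 at day 42 (0.0589) and -0.60 ± 0.46 at day 7 (0.569). All 3 probes had Nox4 lower after CaCl2 in all 4 comparisons, and 1 of the 3 called it in WT at day 42.

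Contractile smooth muscle markers moved with Nox4. Of 10, 9 fell in WT at day 7, 8 in WT at day 42, 4 in uMT at day 42 and 0 in uMT at day 7. The shares of all genes called were 6.59%, 10.4%, 6.33% and 0.894%, in that order. Their summed level at day 7, in units of the 75th percentile, was 2146 to 2677 in WT sham and 475 to 975 in WT CaCl2. Across 30 arrays Nox4 correlated at 0.835 with their mean, and at 0.918 without the dim array, where the arrays share groups. Most like Nox4 were Perp (0.985), Zc2hc1a (0.977) and Pgap4 (0.971). The part of the smooth muscle markers in the Nox4 result was not tested.

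**Figure D3:**
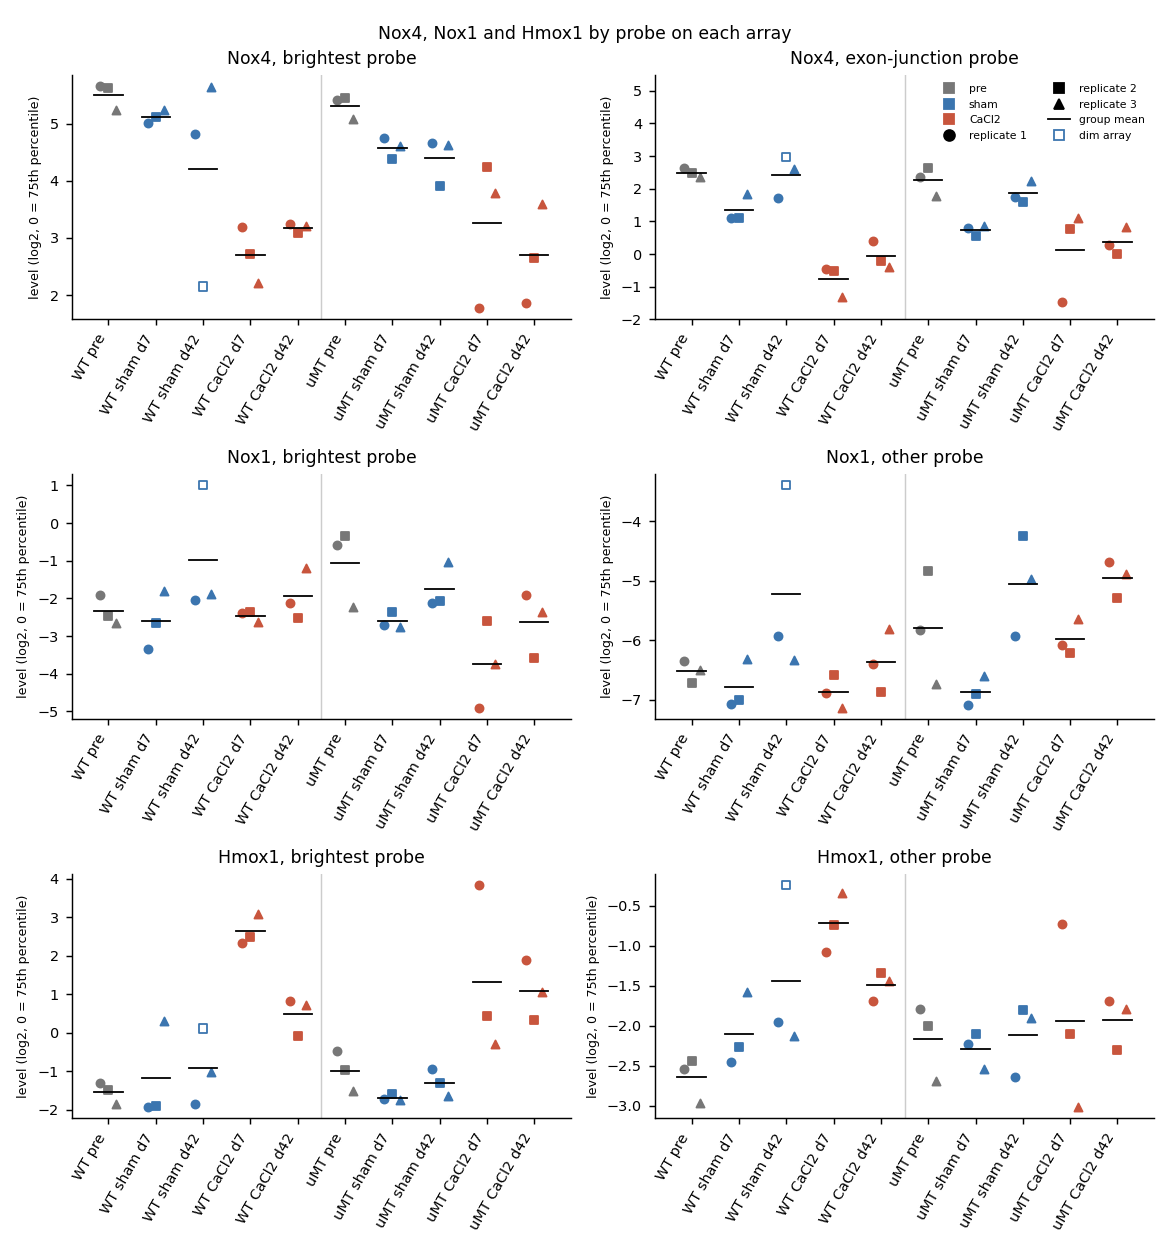
Levels on each of the 30 arrays (y axis: log2 level, 0 at the 75th percentile of the array) for 2 probes each of Nox4, Nox1 and Hmox1 by group (x axis, symbols: replicates, line: group mean, open symbol: the dim array). The dim array is the lowest WT sham day 42 array on the brightest Nox4 probe and the highest on its junction probe, and it is the highest of all 30 on both Nox1 probes.

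Nox1, the inducible oxidase best known from colon and also reported in smooth muscle, was not called in any of the 15 comparisons. It has 2 probes, both in coding sequence, which are shown because only 1 of them gave signal.
Nox1, probe at chrX:130621740-130621799: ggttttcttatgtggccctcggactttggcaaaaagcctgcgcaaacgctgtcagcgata
Nox1, probe at chrX:130627582-130627641: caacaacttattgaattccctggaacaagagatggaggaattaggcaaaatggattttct
The first was well above background on 27 of 30 arrays and the second on 0 of 30, and they correlated at 0.519. On the first, WT levels were -1.91, -2.47 and -2.66 in pre, -2.04, 1.004 and -1.88 in sham day 42 and -2.11, -2.53 and -1.19 in CaCl2 day 42. The dim array was the highest of all 30, and the group order of means began with its group. The 3 arrays below background were uMT CaCl2 day 7 replicates 1 and 3 and day 42 replicate 2. Differences after CaCl2 were 0.15 ± 0.68 in WT at day 7 (0.938), -0.97 ± 0.68 in WT at day 42 (0.341), -1.14 ± 0.68 in uMT at day 7 (0.442) and -0.87 ± 0.68 in uMT at day 42 (0.569). Without the dim array the WT day 42 value was 0.02, and the WT day 7 value turned sign under quantile normalization, so no direction is given for WT. All neighbours in the order of its 10 group means overlapped. Most like it were Fam13c (0.974), 4930445N18Rik (0.906) and Hydin (0.892), which were 0.963, 0.860 and 0.866 without the dim array. Its activator Noxa1 and organiser Noxo1 were not called either: at day 42 in WT they differed by 0.16 ± 0.35 (0.786) and -0.29 ± 0.36 (0.598), or by 0.42 (0.49) and -0.72 (0.166) without the dim array, and at day 7 by 0.03 ± 0.35 (0.977) and -0.95 ± 0.36 (0.114).

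On the brighter of its 2 probes, Hmox1 showed the largest CaCl2 difference of the 8 genes, in WT at day 7. Its brighter probe lies at chr8:77624207-77624266. In WT the levels were -1.94, -1.89 and 0.30 in sham and 2.32, 2.48 and 3.08 in CaCl2 at day 7, and -1.86, 0.11 and -1.02 in sham and 0.82, -0.09 and 0.71 in CaCl2 at day 42. In pre they were -1.31, -1.49 and -1.84. The day 7 CaCl2 arrays were all above the sham arrays, of which replicate 3 was the highest. Hmox1 rose by 3.80 ± 0.73 in WT at day 7 (13.9-fold, adjusted p = 0.0046) and was still called without any 1 of these arrays or the dim array. With slide as a fixed or a random block it was not called. Under the random block with the dim array left out, Hmox1 was called (3.90, adjusted p = 3.69e-04). At day 42 the WT difference was 1.41 ± 0.73 (0.208), with overlap through the dim array, and 1.92 without it (0.112). In WT CaCl2 the day 42 minus day 7 difference was -2.14 ± 0.73 (0.35), with no overlap and no call, on 1 slide.

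In uMT, Hmox1 levels were 3.84, 0.43 and -0.30 in CaCl2 and -1.72, -1.59 and -1.75 in sham at day 7. The first CaCl2 array stood well above the other 2. Hmox1 was the 1 member called in uMT at day 7, at an adjusted p of 0.0486, and without that array the difference was 1.76 (0.327). The call was also lost without any of the 3 sham arrays (0.153 to 0.179). At day 42 the levels were 1.88, 0.33 and 1.05 in CaCl2 and -0.94, -1.31 and -1.64 in sham, and the difference of 2.38 ± 0.73 was not called (0.0517), but was called with the dim array left out of the fit (0.0271). The difference between the genotypes in the day 7 response was -0.79 ± 1.03 (95% interval -2.92 to 1.34).

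The second Hmox1 probe, in coding sequence at chr8:77620797-77620856, is shown because it did not give the same sizes.
Hmox1, second probe: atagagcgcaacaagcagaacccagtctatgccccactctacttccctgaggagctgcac
It gave 1.39 ± 0.47 in WT at day 7 (adjusted p = 0.0768), -0.05 ± 0.47 in WT at day 42, 0.34 ± 0.47 in uMT at day 7 and 0.18 ± 0.47 in uMT at day 42, and no difference was called. On it the WT arrays of day 7 were -2.46, -2.26 and -1.58 in sham and -1.08, -0.73 and -0.34 in CaCl2, again without overlap. The probes correlated at 0.741 over 30 arrays. The Hmox1 calls rest on the brighter probe.

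Other genes of the antioxidant response were called in part. Of 19 measured of 20 listed NRF2 targets and genes of haem and iron handling, 1 rose in WT at day 7, 3 in WT at day 42, 3 in uMT at day 42 and 0 in uMT at day 7, and 0 fell in these 4. Of all genes 6.59%, 10.4%, 6.33% and 0.894% were called, in that order. With 29 arrays, the dim one left out, 5 rose and 1 fell in WT at day 7, 0 rose and 1 fell in WT at day 42, 6 rose in uMT at day 42 and 1 rose in uMT at day 7. The shares of all genes called were then 18.4%, 12.3%, 15% and 9.82%, in that order. All these shares also stand beside the counts of antioxidant enzymes after CaCl2 below. The median difference in WT at day 7 was 0.32 beside 0.09 over all genes. Bach1, the haem-sensitive repressor of Hmox1, was the 1 that rose in WT at day 7, by 0.93 ± 0.26 (0.03). Ftl1, the ferritin light chain, rose by 1.35 ± 0.34 in WT at day 42 (0.012), a call lost without the dim array (0.84, adjusted p = 0.0512), and Srxn1, sulfiredoxin, by 1.55 ± 0.34 in uMT at day 42 (0.00693). Of 21 antioxidant enzymes 0 were called at day 7 in either genotype, and 3 rose in WT at day 42, where the largest rise was that of the peroxiredoxin Prdx1 (2.09 ± 0.64, adjusted p = 0.0382), and 0 in uMT. With the dim array left out, none of the 21 rose in WT at day 42 and 1 fell, with Prdx1 at 0.77 (0.171), while 4 rose and 1 fell in uMT. In uMT sham day 42 against pre 9 of the 21 fell and 1 rose, beside the 17.4% called over all genes.

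Hmox1 moved against the smooth muscle markers and with the neutrophil list, as the phagocyte subunits also did. Across 30 arrays Hmox1 correlated at -0.871 with the mean smooth muscle marker level and at 0.805 with the neutrophil list. With the pan-leukocyte list it correlated at 0.674 and with the macrophage list at 0.551. For the phagocyte subunits the smooth muscle r ran from -0.893 (Cyba) to -0.815 (Cybb). Their neutrophil r ran from 0.791 (Cybb) to 0.876 (Ncf1), so neither pattern is particular to Hmox1. Most like Hmox1 were Traf4 (0.924), Dnajb14 (0.915) and Dnajc7 (0.915). The part of these markers in the Hmox1 result was not tested.

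**Figure D4:**
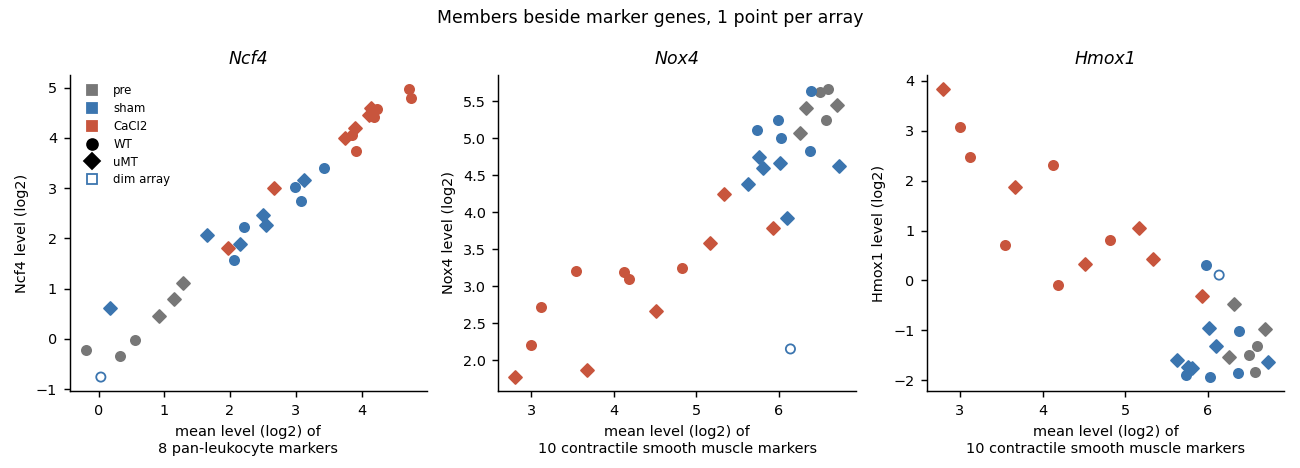
Levels of Ncf4, Nox4 and Hmox1 (y axes, log2) against the mean level of a marker list (x axes, log2), 1 point per array, with colour for the condition, circles for WT and diamonds for uMT. Ncf4 follows the pan-leukocyte markers over all 30 arrays, Nox4 rises and Hmox1 falls with the smooth muscle markers. The dim array is drawn open.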

How the data were processed

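Aortic RNA was hybridised to 30 one-colour arrays. The intensity values are processed signals of Agilent Feature Extraction, per the file headers version 10.7.1.1. The submitters' processing notes name version 9.5.1.1, and the labels and design text name different RNA kits. Of 55681 probes, 24 flagged as outliers were left out.

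Signals were put on the log2 scale, minus the 75th percentile of each array. Probes well above background on all 3 arrays of at least 1 group were kept (33224), and the brightest kept probe stood for its gene. The 10 group means were fitted with limma 3.58.1 in R 4.3.3 (20 residual degrees of freedom), and 15 comparisons were drawn from that fit, with Benjamini-Hochberg adjustment over 23267 genes. The fit was tested on simulated data.

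The members and gene lists were chosen with earlier results of these data known. From each list, the text names the called genes with the largest rise and the largest fall in each CaCl2 against sham comparison, and always a few set partners of the oxidases, 1 of which is not reported here. Printed probes were taken as coding from their translated reading frame, without an annotation. The 3 genes most like each member were chosen by Pearson correlation over 30 arrays. The authors' deposited value table, an alternative, holds linear intensity values with the same sorted values in every column (median 24.2). On the log2 scale the lowest correlation of a column with its scanner file was 0.979, and the normalization behind it is not given in the sources used here. There were 17 kinds of alternative, covering background correction, normalization, filter, probe, slide, replicate block, array weights and left-out arrays.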

Additional observations from a re-analysis of the deposited data

How the results depend on the processing

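The 30 arrays, 3 a group, and 1 dim array limit the precision. In WT at day 7, where 2 of the 8 genes were called, the number called was 0 with slide as a random or a fixed block, 1 with the dimmest probe of each gene, and 7 with only the compared groups in the fit, with array weights, without the 6 dim arrays, or with slide as a random block and the dim array left out. Leaving out 1 array at a time gave 1 to 6. In WT at day 42 the 5 calls became 1 with slide as a random or fixed block and 0 with the compared groups alone. Leaving out 1 array gave 4 to 5. In uMT at day 7 the 1 call became 0 under normexp with quantile normalization, quantile normalization alone, the authors' deposited values, no filter, the mean or the dimmest of a gene's probes, slide as a random block, the replicate block and the compared groups alone. It became 2 without the 6 dim arrays or with the random slide block and the dim array left out, and leaving out 1 array gave 0 to 1. In uMT at day 42 the 5 calls became 0 without the 6 dim arrays, 0 under the random slide block, and 8 with array weights. Leaving out 1 array gave 1 to 7. The within-slide correlation used by the random block was 0.782, and -0.0687 without the dim array. A fixed slide block could not be fitted for uMT CaCl2 against sham, and the array weights stopped before convergence. The causes of these moves were not tested.

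Where no gene was called in the main fit, array weights called 1 in the day 7 genotype difference of the CaCl2 response, 6 and 2 between uMT and WT after CaCl2 at day 7 and day 42, 1 and 5 between the days of CaCl2 in WT and uMT, and 3 in WT sham day 42 against pre. The random slide block without the dim array called 1 between uMT and WT after CaCl2 at day 7 and 1 at day 42, and the compared groups alone called 1 between the days in WT. Leaving out 1 array called 0 to 3 between uMT and WT after CaCl2 at day 7, 0 to 1 between the days in uMT, and 0 to 1 in WT sham day 42 against pre. In uMT sham day 7 against pre the 1 call became 0 under normexp with quantile normalization, quantile normalization, the authors' deposited values and no filter, 2 with the percentile taken over probes above background on all arrays, and 4 with array weights or with the random slide block without the dim array. Leaving out 1 array gave 0 to 4. In uMT sham day 42 against pre it became 0 under normexp with quantile normalization, quantile normalization, the authors' deposited values and without the 6 dim arrays, and leaving out 1 array gave 0 to 1.

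The following differences, none of them called with all arrays, turned sign. Nox1 in WT at day 7 was -0.0312 under normexp with quantile normalization, -3.58e-04 under quantile normalization, -0.134 with slide as a random block and -0.00293 with slide as a fixed block, and ran from -0.22 to 0.55 when 1 array was left out. Nox1 in WT at day 42 was 0.0404 with the random slide block without the dim array and 0.0172 without the 6 dim arrays, and ran from -1.503 to 0.0172 when 1 array was left out. With the dimmest probe, Hmox1 in WT at day 42 was -0.0513 and Cyba in uMT at day 7 was -0.174. Rac2 in uMT at day 7 was -0.187 with array weights. When 1 array was left out in uMT at day 7, Cybb ran from -0.00424 to 1.39, Ncf4 from -0.0377 to 1.29 and Rac2 from -0.382 to 0.58. The day 42 difference in the CaCl2 response, uMT minus WT, was for Cybb 0.502 under normexp with quantile normalization, 1.41 with slide as a random block, 0.415 with that block and no dim array and 0.162 with array weights. For Ncf4 the last 3 settings gave 0.607, 0.316 and 0.179, and for Rac2 0.188, 0.407 and 0.342. For Ncf1 the value was -0.0773 without the 6 dim arrays. With 1 array left out these day 42 values ran from -0.996 to 0.464 for Cybb, -1.17 to 0.328 for Ncf4 and -0.906 to 0.391 for Rac2, and the day 7 value for Hmox1 from -2.05 to 0.0253. Cybb in WT sham day 42 against pre was -0.0701 under quantile normalization and -0.102 with the authors' deposited values. The replicate numbers are not said to pair arrays. Over 135 pairs of same-numbered arrays of different groups, the median correlation of deviations from group means was -0.0409, and 32 were over 0.1. With the replicate number as a block, 0 genes were called in uMT at day 7.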
